A study of Mus musculus with 6 samples.

Results

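The 9 genes described here encode liver enzymes that break down the aromatic amino acids: Tat, Hpd, Hgd and Fah of the tyrosine route, and Tdo2, Afmid, Kmo, Kynu and Haao of the tryptophan route. They were taken by name, as 9 of the 35977 rows of a table of read counts per gene; the rule used no measured value. The RNA came from bulk liver of mice transduced by an adeno-associated virus (AAV), a gene delivery vector. Livers labelled Cre-miR122 (replicates 1, 2 and 4) had received AAV-Tnnt2-Cre-miR122, whose name and the study's design text denote added target sites of miR-122, a microRNA abundant in hepatocytes. Livers labelled Cre (replicates 10, 11 and 12) had received AAV-Tnnt2-Cre. Both vectors carry the recombinase Cre under the promoter of Tnnt2, the cardiac troponin T gene, so both groups had been given virus and Cre, and no liver without virus was analysed here. The labels name no strain, genotype, age, route, dose or time after transduction, nor whether each library was 1 animal. The comparison asks how the added sites affect the liver.

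Tat, tyrosine aminotransferase, removes the amino group of tyrosine. Hpd makes homogentisate, Hgd opens its ring, and Fah splits the last intermediate into fumarate and acetoacetate. Loss of FAH in people causes a hereditary tyrosinaemia, and loss of HGD causes alkaptonuria. Tdo2, tryptophan dioxygenase, opens the ring of tryptophan, Afmid releases kynurenine, and Kmo, Kynu and Haao carry it on towards quinolinate, from which liver can make NAD. Tat and Tdo2 are textbook examples of enzymes whose genes are induced by glucocorticoids, and much of the pathway is switched on around birth.

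Total counts lay between 20340994 and 20817837 per library. Hepatocyte markers were abundant, with the 8 of 9 listed markers that had a row summing to between 148038 and 151056 CPM in Cre-miR122 livers and between 128979 and 154180 CPM in Cre livers, where CPM are read counts scaled to a common library size with TMM factors. Markers of the kidney proximal tubule, another tissue that uses these enzymes, had at most 4 counts in any library. Cre replicate 10 differed in its sex-linked genes, with 5 counts of Xist and 1676 of Ddx3y, against at least 15778 and at most 1 in each other library. The 4 B cell markers were low. For each, all Cre-miR122 libraries lay below all Cre libraries, as they did for 5.45% of all genes. All 4 had an unadjusted p under 0.05 by edgeR, as had 5.41% of all genes. Together they summed to 10.7, 14.4 and 13.3 CPM in Cre-miR122 replicates 1, 2 and 4, against 19.9, 23.7 and 18.5 CPM in Cre replicates 10, 11 and 12. For 3 of 5 neutrophil markers, too, all Cre-miR122 libraries lay below all Cre libraries, as they did for 5.45% of all genes, and the 5 summed to between 12.3 and 13.6 CPM in Cre-miR122 livers and between 15.0 and 18.7 CPM in Cre livers. The part of these cells in the values below was not tested. No pair of libraries agreed within counting error, the smallest chi-square per degree of freedom being 5.76.

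All 9 genes passed the filter on low counts, and none was called different between the vectors. The edgeR quasi-likelihood test called 0 of 9 at an adjusted p under 0.05, where 0% of the 14374 genes tested were called. DESeq2 also called 0 of 9 (0.0209% of all genes) and limma-voom 0 of 9 (0% of all genes). At an unadjusted p under 0.05 the count was again 0 of 9 by edgeR, where 5.41% of all genes passed. Their log2 fold changes (Cre-miR122 minus Cre) were above 0 for 7 and below 0 for 2, with a median of 0.028, beside -0.0029 over all genes tested. Behind these small medians stood 2 kinds of gene: Tat, whose level differed several-fold between livers of the same group, and the other 8, whose highest library was at most 1.5-fold above the lowest.

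**Figure D1:**
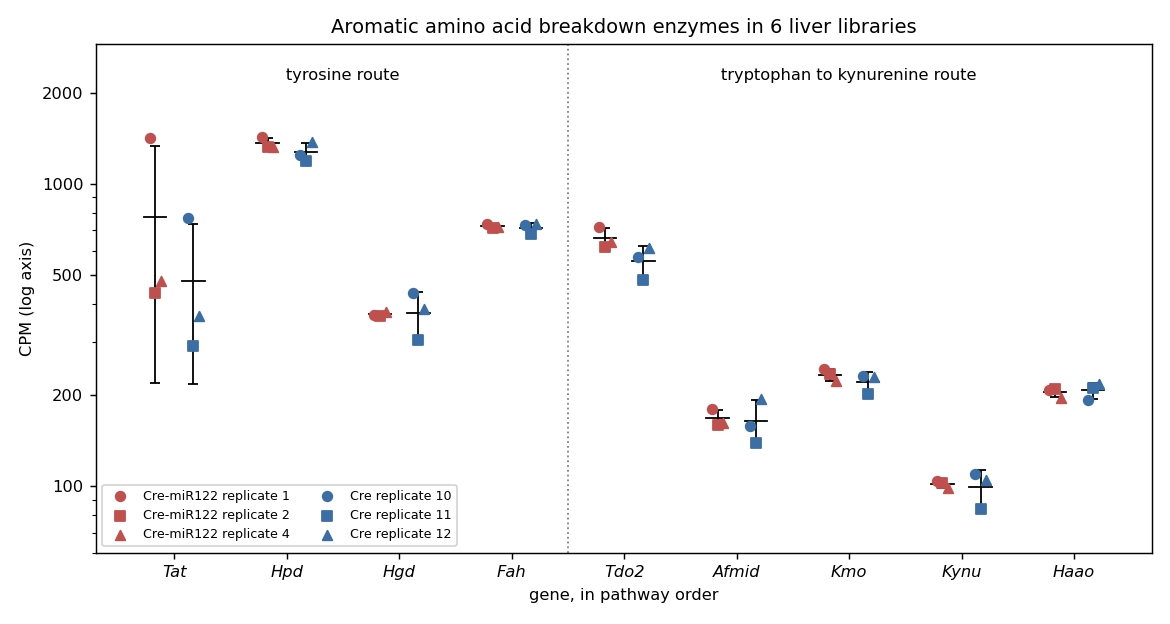
CPM on a log axis for each of the 9 genes in pathway order, with 1 point per library, Cre-miR122 libraries to the left of Cre libraries, and the mean with its SD in black (n = 3 each). Tat spans 291 to 1419 CPM while Fah spans 682 to 737 CPM.

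To show the sequence from which the most variable gene, the steadiest gene and the only gene whose groups did not overlap are transcribed, their start regions are given from RefSeq (build GRCm38.p6), 250 bases before to 50 bases after a start that is the same as in the count table. For Tat the RefSeq gene record itself begins further upstream, at 109986078, a position outside this window. They are Tat (chr8:109990186-109990485, plus strand), Tdo2 (chr3:81975679-81975978, minus strand) and Fah (chr7:84605893-84606192, minus strand), each read 5′ to 3′ on the strand of the gene. Capitals mark matches on either strand to any of 5 short motifs. These were CCAAT, bound by the factor NF-Y, then the core promoter box TATAAA, then GGGCGG, bound by Sp1, then AGAACA, which is part of the glucocorticoid response element, and lastly GTTAAT, which is part of the element bound by HNF1.
Tat: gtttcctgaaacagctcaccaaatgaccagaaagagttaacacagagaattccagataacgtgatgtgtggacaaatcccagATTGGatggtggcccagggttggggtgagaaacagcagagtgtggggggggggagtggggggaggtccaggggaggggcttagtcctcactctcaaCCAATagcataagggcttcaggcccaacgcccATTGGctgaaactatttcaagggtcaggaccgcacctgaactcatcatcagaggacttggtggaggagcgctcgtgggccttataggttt
Tdo2: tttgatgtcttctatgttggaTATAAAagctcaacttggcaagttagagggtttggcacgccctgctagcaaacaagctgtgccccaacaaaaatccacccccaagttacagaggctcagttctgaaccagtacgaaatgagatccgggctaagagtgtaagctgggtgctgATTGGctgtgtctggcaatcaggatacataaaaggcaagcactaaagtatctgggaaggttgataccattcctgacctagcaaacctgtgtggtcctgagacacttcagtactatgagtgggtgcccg
Fah: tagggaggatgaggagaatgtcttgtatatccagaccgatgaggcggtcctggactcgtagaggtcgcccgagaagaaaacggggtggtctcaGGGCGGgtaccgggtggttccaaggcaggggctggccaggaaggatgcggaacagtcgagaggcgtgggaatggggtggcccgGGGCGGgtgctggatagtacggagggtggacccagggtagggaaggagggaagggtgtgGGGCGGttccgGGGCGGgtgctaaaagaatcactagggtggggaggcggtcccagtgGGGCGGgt
The Tat window held 3 matches to CCAAT and the Tdo2 window 1, a motif found in 37.4% of the 32851 start regions of this length, while the Fah window held none. Fah had 5 matches to GGGCGG, found in 35.7% of all windows, and neither Tat nor Tdo2 had any. Tdo2 had 1 match to TATAAA (13.6% of all windows), which begins at position -229 from the start, near the far end of the window. None of the 3 windows held AGAACA (19%) or GTTAAT (7.10%). The matches did not overlap each other. Windows were found for 8 of the 9 genes, Kynu being the exception. Letters absent from these windows say nothing of binding elsewhere, and the long-known hormone-responsive elements of Tat in the rat lie far upstream of such a window.

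Tat is the first enzyme of tyrosine breakdown (chromosome 8, 109990436 to 109999804, plus strand, mm10). It was at 1419, 433 and 476 CPM in Cre-miR122 replicates 1, 2 and 4, against 770, 291 and 364 CPM in Cre replicates 10, 11 and 12. A single high library stood in each group, and the groups overlapped. The means were 776 ± 557 CPM with Cre-miR122 and 475 ± 258 CPM with Cre (SD, n = 3 each), a log2 fold change of 0.71 (SE 0.48, edgeR adjusted p = 0.819). Its 95% interval ran from 0.776-fold to 3.45-fold, and an exact two-sided permutation test gave p = 0.5. Without Cre-miR122 replicate 1 the log2 fold change was -0.062, and without Cre replicate 10 it was 1.25, so single libraries set both its sign and its size.

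The Tat values were far beyond counting error. The highest library held 28458 counts, a 95% Poisson interval of 1403 to 1436 CPM, and the lowest held 6242, an interval of 284 to 298 CPM, which covers counting error only. The highest was 4.88-fold above the lowest, whereas for the other 8 genes this ratio ran from 1.08 to 1.5. Within groups the SD of log2 CPM was 0.85 for Tat, beside 0.18 for Hgd and Afmid, and only 0.233% of the 1285 tested genes with a mean of at least 100 CPM had a larger one, their median being 0.12. Tat made up 35.9%, 15.3% and 16.5% of the summed CPM of the 4 tyrosine genes in Cre-miR122 replicates 1, 2 and 4, against 24.2%, 11.8% and 12.7% in Cre replicates 10, 11 and 12.

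**Figure D2:**
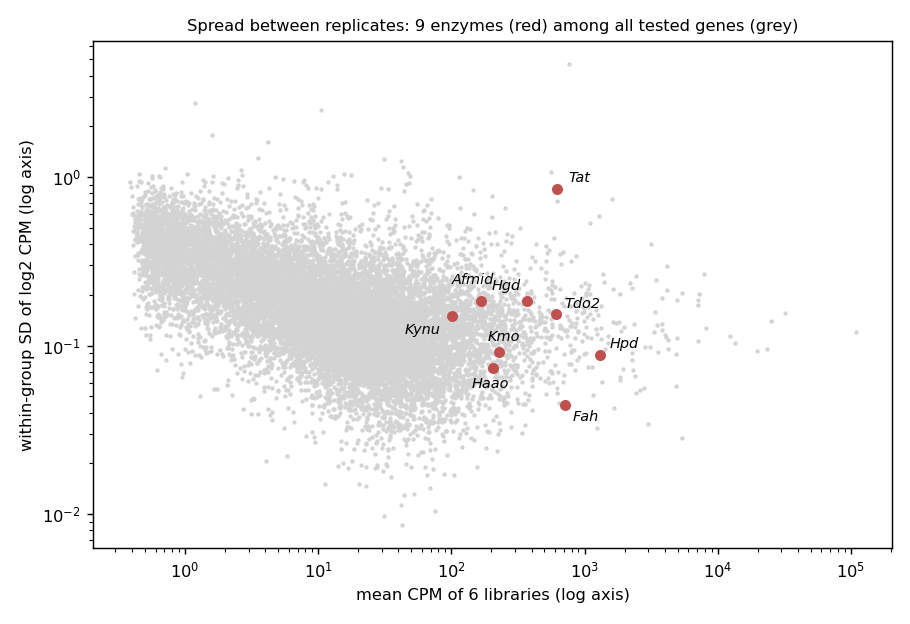
Within-group SD of log2 CPM against mean CPM, both on log axes, for all 14374 tested genes (grey) and the 9 enzymes (red). Tat lies near the top of genes of its abundance at 0.85 and Fah near the bottom at 0.045.

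Hpd, which converts 4-hydroxyphenylpyruvate to homogentisate, was the most abundant of the 9 genes (chromosome 5, 123171807 to 123182686, minus strand). It was at 1427, 1325 and 1324 CPM in Cre-miR122 replicates 1, 2 and 4, against 1248, 1191 and 1377 CPM in Cre replicates 10, 11 and 12. The groups overlapped only through Cre replicate 12, and the log2 fold change was 0.095 (SE 0.096, edgeR adjusted p = 0.847). The 95% interval of the fold change was 0.920 to 1.24.

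Hgd, the ring-opening homogentisate dioxygenase (chromosome 16, 37580153 to 37632026, plus strand), was nearly level in Cre-miR122 livers at 367, 366 and 375 CPM. In Cre replicates 10, 11 and 12 it was at 434, 305 and 384 CPM, so both the highest and the lowest library belonged to the Cre group. The log2 fold change was -0.018 (SE 0.12, edgeR adjusted p = 0.979). Leaving out Cre replicate 10 gave 0.10, leaving out Cre replicate 12 gave 0.0024 and leaving out Cre replicate 11 gave -0.15.

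Fah, which cleaves fumarylacetoacetate (chromosome 7, 84585159 to 84605942, minus strand), was the steadiest of the 9. It was at 737, 713 and 718 CPM in Cre-miR122 replicates 1, 2 and 4, against 729, 682 and 733 CPM in Cre replicates 10, 11 and 12. Over the 6 libraries its coefficient of variation was 2.79%, and 95.7% of the tested genes with at least 100 CPM had a larger within-group SD. The log2 fold change was 0.015 (SE 0.083, edgeR adjusted p = 0.976), with a 95% interval of 0.889-fold to 1.15-fold. It lay just below 0 under upper-quartile scaling and without scaling, so no direction can be given. Tat and Fah thus stood at opposite ends in spread, although they act in 1 route and had similar mean levels of 625 and 719 CPM.

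Tdo2 opens the kynurenine route (chromosome 3, 81958412 to 81975728, minus strand) and was the only gene of the 9 whose groups did not overlap, all Cre-miR122 libraries lying above all Cre libraries, as they did for 5.69% of all genes. It was at 720, 616 and 642 CPM in Cre-miR122 replicates 1, 2 and 4, against 571, 479 and 615 CPM in Cre replicates 10, 11 and 12. The gap between the groups was narrow: Cre-miR122 replicate 2 was at 615.8 CPM with a 95% Poisson interval of 605 to 627 CPM, and Cre replicate 12 at 614.6 CPM with one of 604 to 626 CPM. The means were 659 ± 53.9 CPM with Cre-miR122 and 555 ± 69.1 CPM with Cre (SD, n = 3 each). The log2 fold change was 0.25 (SE 0.11), with an unadjusted p = 0.0550 and an adjusted p = 0.816 by edgeR. The unadjusted p was 0.0369 by DESeq2 and 0.0492 by limma-voom. The exact two-sided permutation p was 0.1, the smallest that 3 libraries against 3 allow. When Cre replicate 11 was left out, the scaling was estimated anew on the remaining libraries. That rescaling put the lowest Cre-miR122 library at 608.3 CPM and the highest Cre library at 609.2 CPM, so the groups then overlapped slightly. The log2 fold change was 0.15 without Cre replicate 11 and 0.33 without Cre replicate 12.

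Afmid, the formamidase that releases kynurenine (chromosome 11, 117825919 to 117839908, plus strand), was at 180, 159 and 162 CPM in Cre-miR122 replicates 1, 2 and 4, against 158, 139 and 194 CPM in Cre replicates 10, 11 and 12. The Cre libraries enclosed all Cre-miR122 libraries, and the log2 fold change was 0.028 (SE 0.12, edgeR adjusted p = 0.966). It was -0.027 when Cre-miR122 replicate 1 was left out, -0.078 when Cre replicate 11 was, and -0.034 with scaling to hepatocyte markers. Of its exonic bases 88 are shared with Tk1, on the opposite strand, and no source states how strand was handled, so reads there cannot be assigned.

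Kmo, the hydroxylase of kynurenine (chromosome 1, 175632193 to 175660853, plus strand), was at 243, 235 and 222 CPM in Cre-miR122 replicates 1, 2 and 4, against 231, 202 and 230 CPM in Cre replicates 10, 11 and 12. Its log2 fold change was 0.078 (SE 0.087, edgeR adjusted p = 0.861), and the groups overlapped. Kynu, the hydrolase that follows it (chromosome 2, 43555257 to 43683048, plus strand), had the lowest counts, 1795 to 2215 per library. It was at 103, 102 and 98.3 CPM in Cre-miR122 replicates 1, 2 and 4, against 110, 83.7 and 104 CPM in Cre replicates 10, 11 and 12. Here too the Cre libraries were both the highest and the lowest, and the log2 fold change was 0.028 (SE 0.10, edgeR adjusted p = 0.961), or -0.082 without Cre replicate 11 and -0.034 with scaling to hepatocyte markers.

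Haao, which makes the precursor of quinolinate (chromosome 17, 83831348 to 83847958, minus strand), was the only one of the 9 genes not lowest in Cre replicate 11. It was at 208, 209 and 195 CPM in Cre-miR122 replicates 1, 2 and 4, against 193, 210 and 217 CPM in Cre replicates 10, 11 and 12. Cre replicate 11 was instead the second highest, and the lowest was Cre replicate 10. The log2 fold change was -0.019 (SE 0.082, edgeR adjusted p = 0.967), with a 95% interval of 0.869-fold to 1.12-fold, and leaving out Cre-miR122 replicate 4 gave 0.011 while leaving out Cre replicate 12 gave 0.018.

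As levels, the 9 transcripts were spread over a wide range. Dividing CPM by gene length in kilobases, Hpd averaged 965 ± 62.5 CPM per kb over the 6 libraries (SD), Fah 453 ± 12.7, Tdo2 371 ± 48.7, Tat 263 ± 178, Hgd 218 ± 24.3, Kmo 90.9 ± 5.72, Haao 80.3 ± 3.66, Afmid 43.5 ± 5.04 and Kynu 19.4 ± 1.72. By these lengths the 4 tyrosine genes and Tdo2 stood above the 4 later genes of the tryptophan route in every library. In that order Fah and Tdo2, Tdo2 and Tat, Tat and Hgd, and Kmo and Haao overlapped in their libraries, and the other neighbours did not. The places of Tdo2 and of the later tryptophan genes depend on the length taken: with the longest coding transcript of GENCODE M21, Tdo2 came to 177 CPM per kb, Haao to 149, Afmid to 71.1, Kmo to 61.9 and Kynu to 36.1, and the ranges of Tdo2 and Haao then overlapped. Tat, with a lowest library of 122.5 CPM per kb by that length, then also reached below Haao, whose libraries lay between 139.6 and 157.2 CPM per kb. Together the 9 genes took 0.531%, 0.416% and 0.418% of all counts in Cre-miR122 replicates 1, 2 and 4, against 0.441%, 0.378% and 0.411% in Cre replicates 10, 11 and 12.

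Because the vectors differ in sites for miR-122, the 3′ UTRs of the 9 genes were searched for ACACTCC, the 7 bases complementary to the seed of miR-122. None of the 9 longest annotated 3′ UTRs in GENCODE M21 held it, where 9.25% of 12642 tested genes did. Their lengths ran from 106 bases for Fah to 2294 bases for Kmo.

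**Figure D3:**
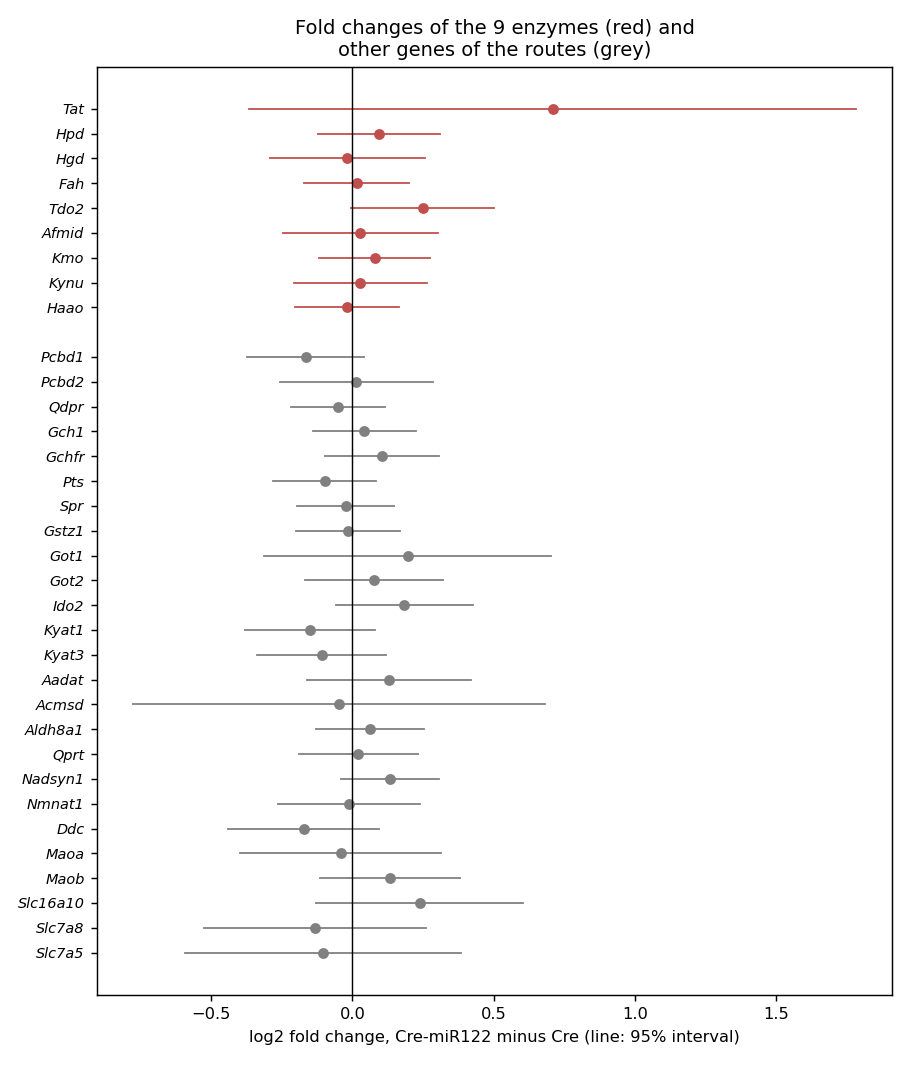
Log2 fold change (Cre-miR122 minus Cre) with its 95% interval for the 9 enzymes (red) and 25 other tested genes of the same routes (grey), from edgeR on 3 libraries per group. Every interval drawn includes 0, and that of Tat, from -0.37 to 1.78, is the widest.

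The rest of the 2 routes was also close between the vectors. Of 31 further genes of aromatic amino acid and NAD metabolism, 26 passed the filter, of which 13 were above 0 and 13 below, with a median log2 fold change of 0.00015. By edgeR 0 of 26 were called, and 0 of 26 had an unadjusted p under 0.05. Gstz1, the isomerase between Hgd and Fah, was at 641 ± 19.4 CPM with Cre-miR122 and 647 ± 21.4 CPM with Cre (SD, n = 3 each). The 7 genes that make, regenerate or regulate the cofactor tetrahydrobiopterin had log2 fold changes between -0.17 (Pcbd1, the dehydratase of that cofactor) and 0.11 (Gchfr, a regulator of its synthesis). One of them, Pts, an enzyme of its synthesis, had all Cre-miR122 libraries below all Cre libraries, as had 5.45% of all genes (-0.098, SE 0.081).

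On the tryptophan side, Nadsyn1, the enzyme of the last step to NAD, was the only further gene with all Cre-miR122 libraries above all Cre libraries. The same held for 5.69% of all genes. Nadsyn1 was at 35.4 ± 1.05 CPM with Cre-miR122 and 32.3 ± 1.04 CPM with Cre (log2 fold change 0.13, SE 0.076). Qprt, which turns quinolinate into a nucleotide, was at 176 ± 12 CPM with Cre-miR122 and 173 ± 15.4 CPM with Cre. Acmsd, which diverts the product of Haao away from NAD, was low, at 8.44 ± 1.92 CPM with Cre-miR122 and 8.72 ± 4.72 CPM with Cre. Ido2, a dioxygenase related in function to Tdo2, was at 32.0 ± 2.58 CPM with Cre-miR122 and 28.2 ± 3.38 CPM with Cre. Ido1, the interferon-inducible dioxygenase of other tissues, had at most 1 count in any library, and Hpdl, Il4i1, Tph1 and Th were also too low to be tested. The largest of these 26 fold changes was that of Slc16a10, a carrier of aromatic amino acids (0.24, SE 0.16), and all 26 intervals included 0.

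Most of the 9 genes shared a low library. Cre replicate 11 was lowest for 8 of 9 genes, or 88.9%, where it was lowest for 23.9% of all tested genes and 39.8% of those with at least 100 CPM. Its median deviation from the mean of the 6 libraries was -0.24 on the log2 scale, against 0.10, 0.013 and -0.023 in Cre-miR122 replicates 1, 2 and 4, and 0.022 and 0.054 in Cre replicates 10 and 12. The further genes of the 2 routes were lowest there for 11 of 26, or 42.3%, with a median of -0.084. Genes that break down other amino acids were lowest there for 18 of 25, with a median of -0.20. The periportal genes were lowest there for 7 of 8, with a median of -0.46, and the pericentral genes for 0 of 8, with a median of 0.21. The periportal list shares Hal and Sds, and the pericentral list Oat, with the list of other amino acid genes. The periportal list also shares Cps1 with the hepatocyte markers and Pck1 with the glucocorticoid-induced genes. The hepatocyte markers were lowest there for 4 of 8 and highest there for 2 of 8, with a median of -0.12. The 8 macrophage markers summed to 399, 531 and 497 CPM in Cre-miR122 replicates 1, 2 and 4, against 505, 581 and 474 CPM in Cre replicates 10, 11 and 12. The part of these shifts in the result was not tested. In bulk tissue a shift in cell numbers cannot be told apart from a shift in RNA per cell. When libraries were instead scaled to the hepatocyte markers, Cre replicate 11 was lowest for 5 of 9 genes, with a median of -0.095, and for 8.32% of all genes, and without scaling for 6 of 9 and 13.8%.

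The library highest for Tat was also high for other hormone-responsive genes. Cre-miR122 replicate 1, with 1419 CPM of Tat, was highest for 11 of 12 listed genes known to be induced by glucocorticoids, where it was highest for 15.9% of all tested genes. The exception was Sgk1, a kinase gene, which was highest in Cre replicate 10, the library second highest for Tat. Fkbp5, a co-chaperone of the glucocorticoid receptor, lay 0.87 above its own mean in Cre-miR122 replicate 1, and Tsc22d3, which encodes GILZ, lay 0.63 above. The list median was 0.60 in that library, -0.18 and -0.085 in Cre-miR122 replicates 2 and 4, and 0.14, -0.37 and -0.16 in Cre replicates 10, 11 and 12. Between the vectors 0 of the 12 genes were called by edgeR, and the median log2 fold change was 0.32. An unadjusted p under 0.05 by edgeR was reached by 3 of 12, and by 5.41% of all genes. For 1 of 12, Klf9, all Cre-miR122 libraries lay above all Cre libraries, as they did for 5.69% of all genes. Without scaling, Cre-miR122 replicate 1 was highest for 10 of the 12 and 11.8% of all genes. With scaling to hepatocyte markers it was highest for 9 and 8.98%. Other lists shifted there too, with medians of 0.25 for periportal genes, 0.11 for pericentral genes and 0.042 for hepatocyte markers. Of the macrophage markers 7 of 8 were lowest there, as were 16.0% of all genes. The part in the values of Tat of whatever the 12 glucocorticoid-induced genes share was not tested.

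**Figure D4:**
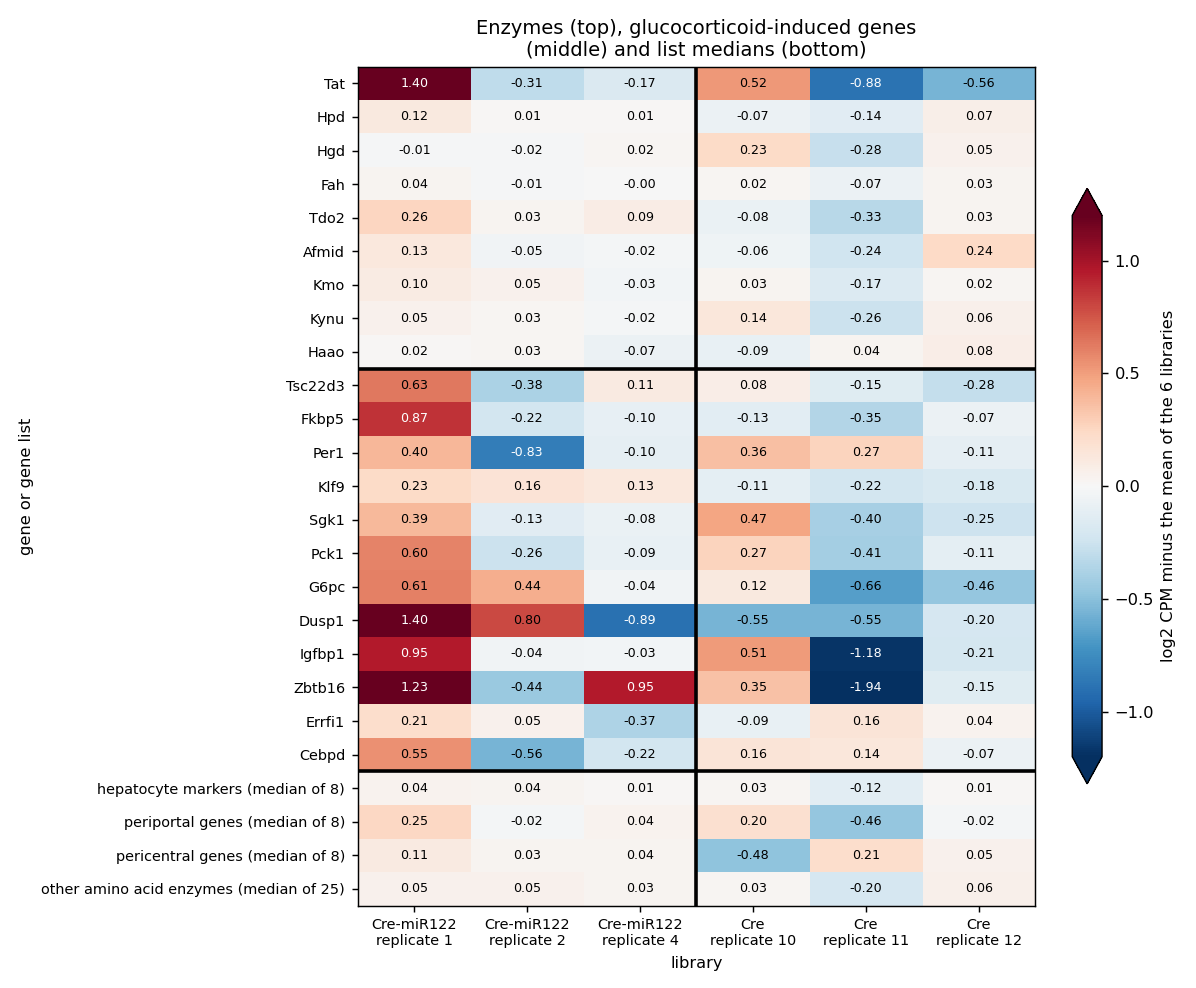
Log2 CPM minus the mean of the 6 libraries, for the 9 enzymes (top), 12 glucocorticoid-induced genes (middle) and the medians of 4 gene lists (bottom), with Cre-miR122 libraries left of Cre libraries. Tat is at 1.4 in Cre-miR122 replicate 1 and at -0.88 in Cre replicate 11, while the other enzymes stay within 0.33 of their means.

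The genes outside both routes whose profile over the 6 libraries lay closest to that of Tat, among 8252 with a mean of at least 10 CPM, were Igfbp1, Eif4ebp3 and Nlrp12. Their centred log2 values differed from those of Tat by a root mean square of 0.29, 0.36 and 0.36, beside 0.76 for Tat about its own mean. Igfbp1, a secreted binding protein of insulin-like growth factors that is also on the glucocorticoid list, was at 1083, 545 and 547 CPM in Cre-miR122 replicates 1, 2 and 4, against 800, 247 and 483 CPM in Cre replicates 10, 11 and 12. Eif4ebp3 encodes a repressor of translation initiation and Nlrp12 a protein of innate immunity. Closest to Tdo2 were Acy1, an aminoacylase gene, Ric1 and Dhcr7, a reductase of cholesterol synthesis, with differences of 0.030, 0.031 and 0.033, beside 0.18 for Tdo2 itself. The neighbours of Tat and Tdo2 were picked as the closest of 8252 genes over only 6 libraries. Small differences follow from that choice, and nothing is concluded from them. Among the 9 genes themselves the closest pair was Hgd and Kynu (0.053), and Tat was at least 0.65 from every other gene.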

How the data were processed

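The authors deposited raw read counts, whole numbers per gene, for 6 mouse liver libraries. Per the submitters' processing notes, STAR 2.7.9a, featureCounts 2.0.1 and the build GRCm38 (mm10) were used. Strand handling and multi-mapping reads: not given in the sources used here. Gene lengths are those of the deposited table. The table has 5 further value columns whose names fit no sample, and these were left aside. Groups and replicate numbers came from the sample titles.

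Counts were tested with edgeR 4.0.16 (R 4.3.3): TMM scaling, filterByExpr, quasi-likelihood F test on group alone, two-sided, Benjamini-Hochberg adjusted over all 14374 genes. SEs and 95% intervals came from the F statistic. Log2 CPM used a prior count of 2. Alternatives were other scalings and filters, DESeq2 1.42.0, limma-voom (limma 3.58.1), robust dispersion, a threshold of 0.10, leaving out the 10 most abundant genes or each library, and, added after seeing the data, scaling to 8 hepatocyte markers. Each tool was tested on simulated data. Since the labels name no separate animals, a p-value covers only the variation among these libraries, part of which may be technical. By its sex-linked genes, Cre replicate 10 differed from the other Cre libraries, so the Cre group did not come from a single animal. The genes and lists were chosen with earlier results of these data known. Named were the 9 genes, the tested genes of the routes, and the 3 closest profiles to Tat and to Tdo2; 1 gene of the routes is counted but not reported here.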

Additional observations from a re-analysis of the deposited data

How the results depend on the processing

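No paired analysis was possible because the groups share no replicate numbers. The count of the 9 enzymes called, and that of the other genes of the routes (30 tested without a filter, 26 otherwise), was 0 under all 17 alternatives. Among all genes tested, 2 were called without a filter on low counts and 3 by DESeq2, with none of these enzymes or other genes of the routes among them, and 0 under the other alternatives. The median log2 fold change of the 9 enzymes ran from -0.0072 to 0.11 when each library was left out in turn, and was -0.034 with scaling to hepatocyte markers. The log2 fold changes of Hpd, Tdo2 and Kmo stayed above 0 under all 16 alternatives run for them, Tdo2 between 0.15 and 0.33 and with adjusted p between 0.454 and 1.00. Leaving out each library gave -0.062 to 1.25 for Tat, -0.15 to 0.10 for Hgd, -0.018 to 0.034 for Fah, -0.078 to 0.17 for Afmid, -0.082 to 0.11 for Kynu and -0.067 to 0.018 for Haao. Other sign changes were those of Fah under upper-quartile scaling (-0.00051), without scaling (-0.0047) and with scaling to hepatocyte markers (-0.052), and under the last also Afmid (-0.034) and Kynu (-0.034). The cause of these was not tested. Each of the 9 genes had 1795 or more counts per library, and each group had 3 libraries.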

Other observations

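Cre replicate 10, the library with Y-linked counts, was the extreme library for some of these enzymes. Hgd and Kynu were highest there, at 0.23 and 0.14 above their own means on the log2 scale, and Haao was lowest there, at -0.090. All 8 listed pericentral genes were lowest in the same library, where 15.8% of all tested genes were, with a median deviation of -0.48, while the 8 periportal genes had a median of 0.20. In the Cre group that library is the only one of its kind, so sex cannot be told apart from any other difference of this liver. All 5 listed erythroid markers were lowest there too, with a median deviation of -0.93 and a sum of 208.9 CPM, the other libraries lying between 346 and 577 CPM. Of 8 listed transcription factors of hepatocytes, 2 were lowest there, and the list median was -0.017. One of these was Nr3c1, the glucocorticoid receptor gene, with 1570 counts in that library. Over the groups Nr3c1 was at 98.1 ± 6.31 CPM with Cre-miR122 and 93.0 ± 14.2 CPM with Cre (SD, n = 3 each).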
